A study of Mus musculus with 200 samples.

Results

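Primitive endoderm (PrE) is the extraembryonic layer of the implanting mouse embryo, and its response to the combined knockout of Suz12 and Eed is described here. The comparison was defined by the sample labels. PrE libraries labelled as the Suz12 Eed double knockout (3) were set against 3 PrE libraries titled Control, called wild type here. They are 6 of the 200 libraries in the series. Wild-type replicates 1 and 2 were nearly identical (Pearson r = 0.9959 on log2 values, against 0.9655 and 0.963 with replicate 3), so their mean was used as 1 library. The comparison therefore rests on 3 double-knockout (double-KO) libraries and 2 wild-type libraries. Wild-type values are given throughout as the mean of replicates 1 and 2 followed by replicate 3.

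The series profiled mouse peri-implantation embryos in which chromatin regulators were removed with C-CRISPR, a CRISPR method that targets a gene with several guides so that most cells of the injected embryo lose it. Knockout embryos were cultured through implantation stages and collected at a stage labelled E5.0, that is day 5 of development, and cells of each lineage were collected after trypsin digestion. The description of the design speaks of profiling the epiblast, and the PrE libraries are known here from their own labels. Each library came from roughly 10 to 100 cells, whose polyadenylated RNA was amplified into full-length cDNA, and the deposited unit is TPM, transcripts of a gene scaled to a fixed total in each library. Neither the guides, the mouse strain, the number of embryos per library nor their sex is stated in the labels, and the double-KO and wild-type libraries carry the same PrE and E5.0 labels. The labels count 3 biological replicates per group. TPM keep no read counts, so sequencing depth is unknown and no counting error can be given.

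Polycomb repressive complex 2 (PRC2) is the enzyme that places methyl groups on lysine 27 of histone H3, a mark of silent developmental genes at promoters rich in CG dinucleotides. EED and SUZ12 are its core scaffold subunits, EZH2 and EZH1 are its alternative catalytic subunits, and the Hox clusters are among the genes it is best known to silence. Primitive endoderm arises beside the epiblast under GATA6, SOX17 and GATA4, lines the blastocyst cavity, and forms visceral endoderm, which absorbs and secretes nutrients, and parietal endoderm, which lays down basement membrane.

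Every PrE library held PrE factors. Gata6 was at 28.9, 29.8 and 31.8 TPM in double-KO libraries, against 26.6 and 16.2 TPM in wild type, and Sox17, Gata4, Sox7, Foxa2 and the receptor gene Pdgfra were all above 6 TPM in every PrE library. Of the defining genes of the neighbouring lineages, Sox2, Cdx2 and Elf5 were at or near 0, and Pou5f1, given below, was low but detected. At 1 TPM or more were 11, 12 and 12 of 18 epiblast markers in double-KO libraries. In wild-type replicates 1, 2 and 3 the counts were 12, 12 and 13. Sox2, an epiblast factor, reached at most 0.234 TPM in double-KO and 0.0782 TPM in wild-type libraries. Cdx2, a trophectoderm factor, was listed at 0.784, 0 and 0 TPM in double-KO libraries and at 0 in wild type. Elf5, of extraembryonic ectoderm, did not pass 0.185 TPM in any PrE library. Trophoblast giant cell and placental genes summed to 1642, 1575 and 1803 TPM in double-KO libraries, against 1179 and 1117 TPM in wild type. Of 20 markers of blood, vessels and maternal stroma, 3, 6 and 7 were above 0 in the double-KO libraries, against 6, 4 and 0 in wild-type replicates 1, 2 and 3, and 9, among them Ptprc and Hbb-y, were listed at 0 in all. Their summed level was 1.93, 2.79 and 1.93 TPM in double-KO libraries, against 1.64 and 0 TPM in wild type.

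The targeted genes were lower in every double-KO library, with substantial residual RNA. Eed (chromosome 7, 89954654 to 89980983, mm10) was at 53.5, 63.5 and 49.7 TPM in double-KO libraries, against 160.5 and 171 TPM in wild type. It averaged 55.5 ± 7.12 TPM in double-KO PrE (SD, n = 3) and 166 ± 7.63 TPM in wild type (SD, n = 2), a log2 change of -1.57 (SE 0.19, limma, Benjamini-Hochberg adjusted p = 6.87e-05). Suz12 (chromosome 11, 79993106 to 80034123) was at 17.5, 14.5 and 13.1 TPM in double-KO libraries, against 28.4 and 30.3 TPM in wild type. Its groups did not overlap, the log2 change was -0.93 (SE 0.32) and the limma adjusted p of 0.0482 lay just under the threshold of 0.05. That call was lost when double-KO replicate 1, 2 or 3 was left out (adjusted p = 0.0585, 0.104 and 0.138), without wild-type replicate 1 (0.0677) and without wild-type replicate 3 (0.201). TPM sum reads over all exons, so RNA that carries a small deletion still counts, and these values do not measure protein. In bulk libraries of this kind, fewer cells with a transcript and less transcript per cell cannot be told apart.

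Among the other subunits of the complex, the catalytic gene Ezh2 moved with its partners. Ezh2 was at 53.9, 57.6 and 60.9 TPM in double-KO libraries, against 104 and 117 TPM in wild type, a log2 change of -0.93 (limma adjusted p = 0.00389), and no double-KO library reached the wild-type values. Rbbp7 and Rbbp4, histone-binding subunits shared with other complexes, went the other way. Rbbp4 was at 35.4, 33.3 and 42.3 TPM in double-KO libraries, against 20.8 and 15.3 TPM in wild type (adjusted p = 0.0208) and Rbbp7 at 2061, 2102 and 2378 TPM in double-KO libraries, against 1348 and 1578 TPM in wild type (adjusted p = 0.00634). The Rbbp4 call was lost without wild-type replicate 3 (adjusted p = 0.185), without double-KO replicate 3 (0.0756) and under quantile normalization (0.122), and under median-of-ratios scaling both were lost (Rbbp4 0.0648, Rbbp7 0.161). The accessory genes Jarid2, Aebp2 and Mtf2 and the catalytic paralog Ezh1 did not pass the test, and Phf19 was listed at 0 in every PrE library. Reads of Eed, Suz12 and Ezh2 can include overlapping antisense transcripts, since the use of strand in counting is not given in the sources used here.

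Across all genes the double knockout changed PrE broadly and mostly upward. A gene was tested if 2 or more of the 11 libraries in the fit held it at 1 TPM or above, which left 13172, on log2(TPM + 1), a scale that understates changes of low genes. At an adjusted p under 0.05, 2845 genes (21.6%) were called: 2289 were higher (17.4%) and 556 lower (4.22%) in the double knockout. Of these, 1675 were higher and 377 lower by at least 2-fold. The groups did not overlap for 2286 of the 2289 rises and for all 556 falls, beside 50.2% of all tested genes. Separation of the groups of a called gene, where stated, is therefore no further support for its call. The median log2 change of all tested genes was 0.35, so the centre of the distribution sat above 0. Rises made up 80.5% of the calls as deposited, 62.2% after median-of-ratios scaling and 54.3% after quantile normalization, under which the median change was 0.157 and -0.0164. All 556 falls remained called after median-of-ratios scaling and 531 after quantile normalization, whereas 1535 and 1152 of the 2289 rises did. Without wild-type replicate 3, which leaves the averaged pair alone in its group and takes its spread from the others, 1151 genes were higher and 249 lower; without double-KO replicate 3 the counts were 1474 and 413.

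These shifts went with a difference in library composition. The 3 double-KO libraries held 10720 to 11188 genes at 1 TPM or more, and the 3 wild-type libraries 9740 to 9871. The 10 highest genes took 10.1% to 10.5% of all TPM in double-KO libraries and 12.2% to 13.1% in wild type. Actb, cytoplasmic beta-actin, was at 11649 to 15687 TPM in double-KO libraries, against 39424 to 50018 TPM in wild type (log2 change -1.81, limma adjusted p = 5.00e-06), and this gene was singled out after its values were seen. Because TPM sum to a fixed total, a fall of abundant transcripts raises the TPM of others, and the part of this in the rises was not tested.

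The 12 largest rises and 12 largest falls were taken among called genes whose groups did not overlap and whose higher mean was at least 5 TPM, so their separation is part of the choice, and their values are plotted by library below. The rises began with secreted signals. Ccl2 (chromosome 11, 82035571 to 82037453), a chemokine that attracts monocytes, was at 21.7, 44.6 and 32.7 TPM in double-KO libraries, against 0.174 and 0 TPM in wild type (log2 change 4.92, SE 0.43, limma adjusted p = 5.65e-06). Cxcl10, an interferon-inducible chemokine, was at 13.4, 23.7 and 30.8 TPM in double-KO libraries, against 0.183 and 0.159 TPM in wild type (log2 change 4.26, adjusted p = 0.00034). Clu, a secreted chaperone, and Lgals3, the lectin galectin-3, were listed at 0 in wild-type replicate 3: Clu was at 50.6, 60 and 55 TPM in double-KO libraries, against 4.92 and 0 TPM in wild type, and Lgals3 at 33.1, 36.9 and 57.8 TPM in double-KO libraries, against 7.14 and 0 TPM in wild type. The 4 genes were thus low or listed at 0 in wild type and between 13.4 and 60 TPM in the double knockout.

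Several of the largest rises were listed at 0 in both wild-type libraries, so no fold is given for them. Sct, which encodes the hormone secretin, was at 21, 15.3 and 11 TPM in double-KO libraries (adjusted p = 2.13e-06). Gdf15, a stress-induced TGF-beta family hormone, was at 15.1, 9.35 and 20.5 TPM (adjusted p = 1.46e-05), and Anxa3, a calcium-dependent membrane-binding protein, at 12.1, 11.6 and 18.7 TPM (adjusted p = 1.86e-06). Derl3, a component of endoplasmic reticulum-associated degradation, and Sprr1a, a cornified envelope protein of squamous epithelia, showed the same listing. Derl3 was at 20.4, 11 and 29.6 TPM (adjusted p = 0.000115) and Sprr1a at 21.3, 8.65 and 27.2 TPM (adjusted p = 1.64e-05) in double-KO libraries. All 3 double-KO libraries held each of these transcripts, and Sprr1a and Derl3 varied most among them.

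The remaining rises were intracellular. Acta1, skeletal muscle alpha-actin, was at 27.6, 43.9 and 37 TPM in double-KO libraries, against 1.46 and 0 TPM in wild type (log2 change 4.54, adjusted p = 5.31e-05), opposite in direction to Actb. Snapc2, a subunit of the complex that activates small nuclear RNA genes, was at 28.2, 24.2 and 24.1 TPM in double-KO libraries, against 1.44 and 0 TPM in wild type (log2 change 4.08, adjusted p = 5.00e-06). Ccnd3, cyclin D3, was at 23.3, 19 and 26 TPM in double-KO libraries, against 1.41 and 0.144 TPM in wild type (log2 change 3.83, adjusted p = 0.000207). Exons of Ccnd3 and Cxcl10 overlap those of Bysl and Art3 on the opposite strand, so reads of the partners cannot be told apart.

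**Figure D1:**
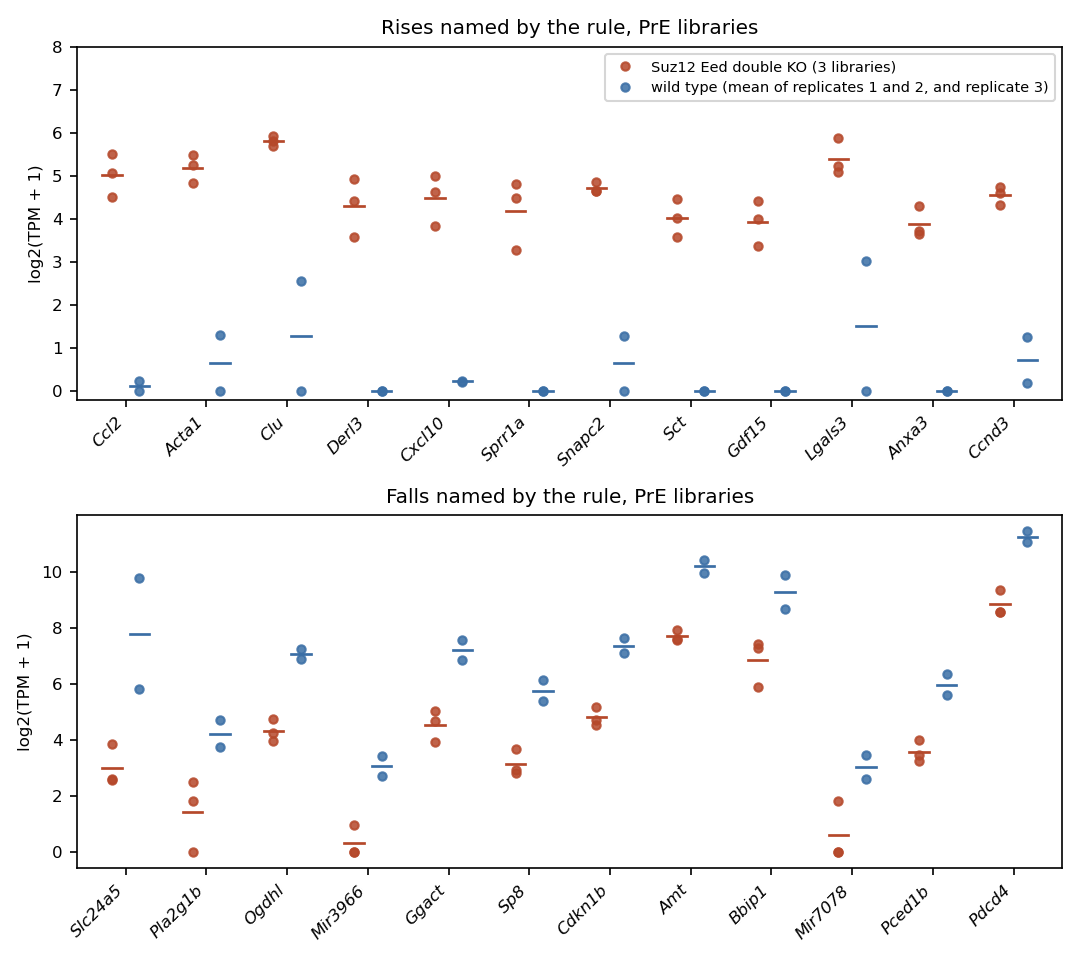
Level of the 12 rises and 12 falls named by rule, as log2(TPM + 1) on the vertical axis, in the 3 double-KO PrE libraries (red, left) and the 2 wild-type PrE libraries (blue, right), with a bar at each group mean. The genes were chosen for groups that do not overlap, and wild type is at 0 in both libraries for Derl3, Sprr1a, Sct, Gdf15 and Anxa3.

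The falls included genes of mitochondrial enzymes and Pdcd4. Amt (chromosome 9, 108296853 to 108302302), the aminomethyltransferase of the mitochondrial glycine cleavage system, was at 192, 242 and 189 TPM in double-KO libraries, against 996 and 1377 TPM in wild type (log2 change -2.50, SE 0.22, limma adjusted p = 5.65e-06). Ogdhl, a mitochondrial oxoglutarate dehydrogenase-like enzyme, was at 17.8, 25.6 and 14.4 TPM in double-KO libraries, against 116 and 151 TPM in wild type (log2 change -2.76, adjusted p = 1.56e-05). Pdcd4, an inhibitor of translation initiation, was at 379, 651 and 377 TPM in double-KO libraries, against 2101 and 2755 TPM in wild type (log2 change -2.41, adjusted p = 9.11e-05). Double-KO replicate 2 had the highest double-KO value for all 3 genes.

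Regulators also fell. Cdkn1b, which encodes the cell-cycle inhibitor p27, was at 24.9, 35.3 and 21.9 TPM in double-KO libraries, against 134 and 196 TPM in wild type (log2 change -2.55, SE 0.35, adjusted p = 0.000192), and Sp8, a zinc finger transcription factor, at 6.14, 11.9 and 6.66 TPM in double-KO libraries, against 40.4 and 68.4 TPM in wild type (log2 change -2.59, adjusted p = 0.000332). Slc24a5, a cation exchanger of pigment cells, spread widely within wild type: it was at 5.11, 13.5 and 4.88 TPM in double-KO libraries, against 54.6 and 868 TPM in wild type. Its call rested on wild-type replicate 3 (adjusted p = 0.002 with it and 0.0505 without it), and its exons overlap Myef2 on the opposite strand. Bbip1, a BBSome subunit of cilia, was at 169, 57.8 and 152 TPM in double-KO libraries, against 409 and 936 TPM in wild type (adjusted p = 0.00097), a call lost without wild-type replicate 1 (0.176). Pla2g1b, a secreted phospholipase, Ggact, Pced1b and the microRNA loci Mir3966 and Mir7078 completed the falls, with log2 changes between -2.67 (Ggact) and -2.41 (Pced1b) for the protein-coding pair with overlapping antisense partners, and -2.77 for Pla2g1b. Mir7078 lies within Cmip, and neither microRNA locus reached 10 TPM in any of the 5 values, so these values need not be microRNA.

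As examples, 250 bases upstream of the RefSeq start (GRCm38.p6, the mm10 assembly) are printed for 3 genes with rises and 1 with a fall. They run 5′ to 3′ on the strand of the gene, with each CG dinucleotide in capitals. CG reads the same on both strands.
Hoxa7, chr6:52218574-52218823, - strand: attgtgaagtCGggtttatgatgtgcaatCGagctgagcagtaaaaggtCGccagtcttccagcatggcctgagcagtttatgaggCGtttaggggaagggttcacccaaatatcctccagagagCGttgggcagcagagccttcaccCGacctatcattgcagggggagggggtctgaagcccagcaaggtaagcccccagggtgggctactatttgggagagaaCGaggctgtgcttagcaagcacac
Lhx2, chr2:38339031-38339280, + strand: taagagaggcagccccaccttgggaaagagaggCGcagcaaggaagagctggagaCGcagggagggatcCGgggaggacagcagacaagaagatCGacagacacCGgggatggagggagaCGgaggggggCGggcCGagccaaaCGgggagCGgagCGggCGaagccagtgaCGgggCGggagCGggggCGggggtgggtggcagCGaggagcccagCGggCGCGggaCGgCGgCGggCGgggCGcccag
Sct, chr7:141279134-141279383, - strand: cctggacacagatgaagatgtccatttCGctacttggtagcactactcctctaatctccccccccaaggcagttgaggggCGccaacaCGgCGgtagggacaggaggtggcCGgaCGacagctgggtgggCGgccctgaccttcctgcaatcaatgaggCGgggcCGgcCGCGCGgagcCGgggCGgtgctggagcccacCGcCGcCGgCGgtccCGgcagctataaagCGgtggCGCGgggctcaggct
Cdkn1b, chr6:134920151-134920400, + strand: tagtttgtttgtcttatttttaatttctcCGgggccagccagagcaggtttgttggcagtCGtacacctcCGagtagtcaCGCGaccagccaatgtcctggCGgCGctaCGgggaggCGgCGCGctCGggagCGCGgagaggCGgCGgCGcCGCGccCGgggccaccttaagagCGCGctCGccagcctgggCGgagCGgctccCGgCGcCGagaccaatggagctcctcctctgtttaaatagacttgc
Hoxa7 holds 7 CG, and 46.3% of the 32817 RefSeq windows of this length hold at least as many. Lhx2, of which the more upstream of its RefSeq starts is shown, holds 25 (at least as many in 10.7%), Sct 22 (14.8%) and Cdkn1b 28 (7.61%). The windows of the gene that fell and of those that rose thus both include CG-rich ones. CG was also counted for tested genes with a RefSeq window from 250 bases before to 50 after the start. For each gene the window with most CG was used. The median was 22 for genes called higher, 22.5 for genes called lower, 21 for genes not called and 21 for all tested genes. At least 10 CG were held by 90%, 84.6%, 82.2% and 83.7% of these sets in the same order. Among tested genes at 1 TPM or less in wild-type PrE, the share was 76.3% for those called higher and 67.8% for all. No test of these shares was made. These counts describe the letters of the windows only.

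Hox genes, the homeodomain factors that pattern the body axis and are not normally used by extraembryonic endoderm, were detected more widely in the double knockout, at low levels. Of 39 Hox genes in the table, 19, 22 and 24 were above 0 TPM in the double-KO libraries, against 3, 3 and 8 in wild-type replicates 1, 2 and 3. At 1 TPM or more the counts were 11, 9 and 12 in double-KO libraries and 2, 2 and 4 in wild type. The summed Hox level was 40.3, 44.4 and 62.2 TPM in double-KO libraries, against 12.4 and 20.5 TPM in wild type. All 3 double-KO libraries lay above both wild-type libraries for 14 of the 39 and below them for none. Listed at 0 in every PrE library were 9. Among the 13172 tested genes, the double-KO libraries lay above for 5203 and below for 1413, together 50.2%. The share of the 39 Hox genes that lay above was not larger than that of the tested genes, and the 39 include 26 that were not tested. The double-KO libraries also held more genes above 0 in all (13552, 14018 and 14414, against 12712, 12532 and 12109 in wild-type replicates 1, 2 and 3), and its part in the Hox counts was not tested.

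Only 13 Hox genes passed the filter on low values, and most passed through the group in which they were high, so their calls are listed as values. Hoxc9 (chromosome 15, 102976439 to 102985099) was at 5.21, 4.76 and 6.17 TPM in double-KO libraries, against 0 and 0.772 TPM in wild type (log2 change 2.26, SE 0.40, limma adjusted p = 0.00103), a call kept under quantile normalization and without any library. Hoxa7, whose promoter window is printed above, was at 1.91, 3.72 and 4.99 TPM in double-KO libraries, against 0 and 1.11 TPM in wild type (log2 change 1.58, adjusted p = 0.0207), and Hoxd8 at 1.07, 3.2 and 2.41 TPM in double-KO libraries, against 0.139 and 0.527 TPM in wild type (log2 change 1.23, adjusted p = 0.0186). Hoxc13 did not follow them: it was at 6.8, 10.2 and 8 TPM in double-KO libraries, against 8.5 and 8.88 TPM in wild type, the groups overlapped, and its adjusted p was 0.943.

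Hoxd13, Hoxa5 and Hoxd10 were listed at 0 in both wild-type libraries and were also called. Hoxd13, a gene of the posterior end of its cluster, was at 2.38, 1.79 and 1.76 TPM in double-KO libraries (adjusted p = 0.0235). Hoxa5 was at 2.43, 0.252 and 2.56 TPM, nearly absent from replicate 2 (adjusted p = 0.0316). Altogether 7 of the 13 were called higher and 0 lower, beside 17.4% and 4.22% of all tested genes. Their median log2 change was 1.31 beside 0.35 for all genes. The filter favours both the count and the median, which are given as a description. Few of these calls held throughout: 6 of the 7 held after median-of-ratios scaling, 1 after quantile normalization, 3 without double-KO replicate 1, 1 without double-KO replicate 3 and 2 without wild-type replicate 3. Hoxa7 has an overlapping antisense transcript and Hoxd10 a same-strand one, so their reads cannot be told apart from these.

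**Figure D2:**
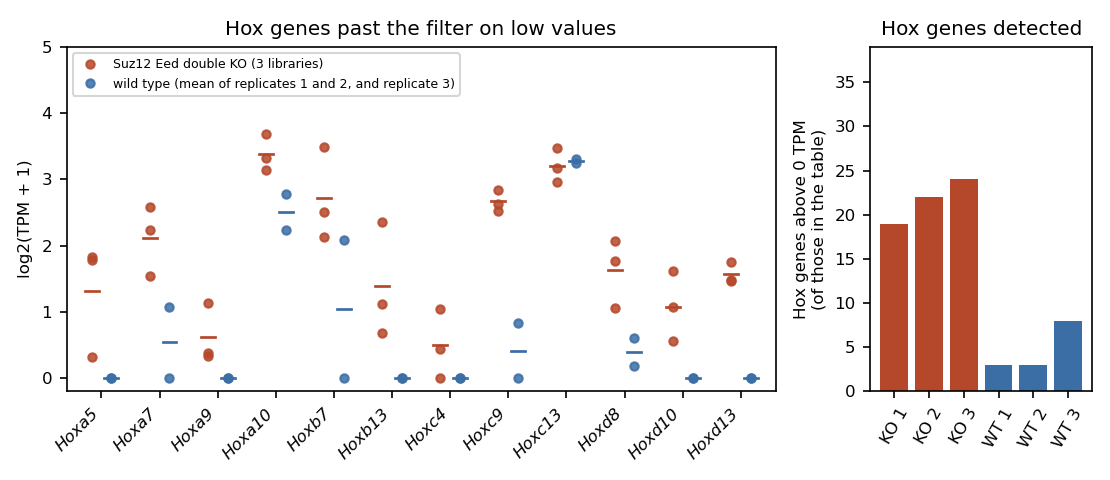
Left, level of 12 of the 13 Hox genes that passed the filter, as log2(TPM + 1), in 3 double-KO (red) and 2 wild-type (blue) PrE libraries, with bars at the means. Right, the number of the 39 Hox genes above 0 TPM in each library, 19, 22 and 24 in the double-KO libraries (KO) and 3, 3 and 8 in the wild-type libraries (WT).

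Other developmental genes known as Polycomb targets were called in both directions. Of 128 in the table, 58, 64 and 66 were above 0 TPM in double-KO libraries, against 47, 45 and 37 in wild-type replicates 1, 2 and 3, and 40 were listed at 0 in every PrE library. The double-KO libraries held more genes above 0 in all, as given above, and the part of this in these counts was not tested. The summed level of the 128 was lower in the double knockout, at 260.3, 255.5 and 280.8 TPM, against 432.5 and 501.7 TPM in wild type, where Mixl1, given below, made up most of the sum. Of the 53 tested, 6 were higher (11.3%, below the 17.4% of all tested genes) and 2 lower (4.22% of all tested genes were lower), with a median log2 change of 0.29 as deposited, beside 0.35 for all genes, and of -0.04 after quantile normalization. Without wild-type replicate 3, 2 were higher and 2 lower.

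Among these, Lhx2, a LIM homeodomain factor of forebrain and limb, was at 1.3, 1.91 and 3.79 TPM in double-KO libraries and listed at 0 in wild type (adjusted p = 0.00553). Nodal, the TGF-beta family signal that patterns the early embryo, was at 11, 8.96 and 10.5 TPM in double-KO libraries, against 2.05 and 5.29 TPM in wild type (log2 change 1.34, adjusted p = 0.00988). The double-KO libraries lay above wild type in both. Mixl1, a homeobox gene of primitive streak and endoderm, was at 62.7, 67.9 and 61.7 TPM in double-KO libraries, against 285 and 344 TPM in wild type (log2 change -2.27, adjusted p = 0.000372). Zic2, a zinc finger factor, was at 0.638, 0.445 and 0.661 TPM in double-KO libraries, against 4.08 and 5.99 TPM in wild type (log2 change -1.92, adjusted p = 0.00101). Of 11 genes of the 2-cell stage, 10 were listed at 0 in every PrE library.

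Of 20 subunits of PRC1, the complex that ubiquitinates histone H2A, 3 were higher (15%, near the 17.4% of all tested genes) and 0 lower. Cbx8, a chromodomain subunit, stood out at 6.25, 9.74 and 8.22 TPM in double-KO libraries, against 0.0738 and 0 TPM in wild type (log2 change 3.11, adjusted p = 0.000505), while the calls of Cbx7 (adjusted p = 0.0235) and Kdm2b (0.0461) were lost without wild-type replicate 3 (0.118 and 0.231). Kdm6b, a demethylase that removes the PRC2 mark, was at 72.4, 94.7 and 86.5 TPM in double-KO libraries, against 164 and 204 TPM in wild type (log2 change -1.11, adjusted p = 0.00447, and 0.0678 without wild-type replicate 3).

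Cyclin-dependent kinase inhibitors, which brake the cell cycle, changed in 5 of 7 cases: 4 rose (57.1%, beside 17.4%) and 1, Cdkn1b, fell as given above. Cdkn1a (chromosome 17, 29090976 to 29100727), which encodes p21, was at 237, 223 and 292 TPM in double-KO libraries, against 79.1 and 83.2 TPM in wild type (log2 change 1.61, SE 0.16, limma adjusted p = 2.17e-05). Cdkn1c, the imprinted gene of p57, was at 9.88, 7.32 and 10.5 TPM in double-KO libraries, against 0.907 and 4.38 TPM in wild type (log2 change 1.66, adjusted p = 0.0136). All double-KO libraries lay above wild type for both. Cdkn2a, the Ink4a and Arf locus that PRC2 is known to silence, was at 2.42, 2.02 and 4.04 TPM in double-KO libraries and listed at 0 in wild type (adjusted p = 0.0034). Its neighbour Cdkn2b was at 6.17, 6.16 and 22.6 TPM in double-KO libraries, against 3.79 and 0 TPM in wild type (adjusted p = 0.0303), a rise carried by double-KO replicate 3 and lost without it (0.129), and lost also without wild-type replicate 3 (0.381). Quantile normalization kept 3 of the 5 calls, those of Cdkn1a, Cdkn2a and Cdkn1b.

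Targets of the tumour suppressor p53 rose in 13 of 21 cases (61.9%, beside 17.4% of all tested genes) and fell in 0, with a median log2 change of 0.97 beside 0.35. Phlda3, an inhibitor of AKT signalling, was at 44.1, 65.7 and 81.5 TPM in double-KO libraries, against 8.01 and 7.92 TPM in wild type (log2 change 2.81, SE 0.27, limma adjusted p = 1.34e-05). Pmaip1, a pro-apoptotic BH3-only gene, was at 11.4, 17.8 and 13 TPM in double-KO libraries, against 2.82 and 2.04 TPM in wild type (log2 change 2.12, adjusted p = 0.000495), and Bax, a pore-forming apoptosis gene, at 424, 355 and 391 TPM in double-KO libraries, against 198 and 189.8 TPM in wild type (log2 change 1.00, adjusted p = 0.000192). The groups were separated in each, as in nearly every called gene. Mdm2, the ubiquitin ligase that limits p53, was at 49.3, 60.5 and 63.7 TPM in double-KO libraries, against 26.8 and 24.9 TPM in wild type (adjusted p = 0.00135) and Trp53 itself at 79.2, 87.7 and 98.6 TPM in double-KO libraries, against 49 and 41.5 TPM in wild type (adjusted p = 0.00878). Tnfrsf10b, a death receptor gene, was at 21.4, 27.1 and 27.9 TPM in double-KO libraries, against 33.1 and 32.2 TPM in wild type and did not pass (0.348). Of the 13 calls, 8 held without wild-type replicate 3, 9 without double-KO replicate 3, 9 after median-of-ratios scaling and 7 after quantile normalization, where the median was 0.50.

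Genes of the amino acid stress response driven by the factor ATF4 rose in 13 of 18 cases (72.2%, beside 17.4%) and fell in 0, with a median log2 change of 1.34 beside 0.35. Atf4 was at 89.7, 122 and 102 TPM in double-KO libraries, against 42.9 and 36.9 TPM in wild type (adjusted p = 0.00102) and Ddit3, a stress factor also called CHOP, at 111, 122 and 124 TPM in double-KO libraries, against 30.6 and 47.8 TPM in wild type (adjusted p = 0.00799). Chac1, a glutathione-degrading enzyme, was at 9.05, 9.89 and 14.8 TPM in double-KO libraries, against 0.588 and 0.454 TPM in wild type (log2 change 2.98, adjusted p = 7.87e-05). Double-KO libraries were above wild type for all 3. The serine synthesis genes Phgdh and Psat1 were at 139.9, 126 and 152 TPM and 62.4, 64.9 and 76.6 TPM in double-KO libraries, against 50 and 42.8 TPM and 26.3 and 27.2 TPM in wild type (adjusted p = 0.000371 and 0.00036). Asns, asparagine synthetase, and the transporter gene Slc7a5 did not pass: Asns was at 126, 111 and 142 TPM in double-KO libraries, against 113 and 88.3 TPM in wild type and Slc7a5 at 2.13, 1.91 and 2.46 TPM in double-KO libraries, against 2.38 and 1.66 TPM in wild type. Of the 13 calls, 11 to 13 were kept under each alternative run, including 11 after quantile normalization and 12 without wild-type replicate 3.

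Immediate early and heat shock genes rose in 9 of 16 cases (56.2%, beside 17.4%) and fell in 0, with a median log2 change of 1.16 beside 0.35. Atf3 and Jun, AP-1 factors induced by stress, were at 93.1, 83.2 and 115 TPM and 36.2, 36.1 and 46.7 TPM in double-KO libraries, against 13.1 and 12.6 TPM and 3.5 and 6.49 TPM in wild type (adjusted p = 0.000233 and 0.000493). Hspb1, a small heat shock protein, was at 2106, 2133 and 2578 TPM in double-KO libraries, against 675 and 683 TPM in wild type (log2 change 1.74, adjusted p = 1.39e-05). Among the chaperones, Hsp90aa1 was at 1040.2, 1082 and 1259.8 TPM in double-KO libraries, against 1116 and 1184 TPM in wild type and Hsph1 at 46.5, 46.6 and 53.8 TPM in double-KO libraries, against 57.7 and 52.8 TPM in wild type, and neither passed (adjusted p = 0.919 and 0.612). Without double-KO replicate 3 the list had 5 rises, and 6 under quantile normalization or without wild-type replicate 3.

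Glycolysis and hypoxia genes rose in 11 of 22 cases (50%, beside 17.4%), and Hk2 fell, with a median log2 change of 0.73 beside 0.35. Eno1 (chromosome 4, 150236721 to 150248879), enolase, was at 1398, 1501 and 1515 TPM in double-KO libraries, against 557 and 506 TPM in wild type (log2 change 1.47, SE 0.13, limma adjusted p = 5.00e-06). Aldoa, aldolase, was at 1188, 1265 and 1483 TPM in double-KO libraries, against 604 and 397 TPM in wild type (log2 change 1.41, adjusted p = 7.84e-05) and Pfkl, liver phosphofructokinase, at 78.9, 80.7 and 87.2 TPM in double-KO libraries, against 40.6 and 27.9 TPM in wild type (log2 change 1.26, adjusted p = 0.00231). The groups did not overlap for these enzymes. Hypoxia genes Bnip3 and Vegfa did not pass: Bnip3 was at 336, 385 and 361 TPM in double-KO libraries, against 312 and 337 TPM in wild type and Vegfa at 6.69, 6.87 and 3.4 TPM in double-KO libraries, against 4.05 and 7.59 TPM in wild type. Wild-type replicate 3 had the lower wild-type value for most of these enzymes, and without it 4 members were higher, while median-of-ratios scaling left 6 higher.

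**Figure D3:**
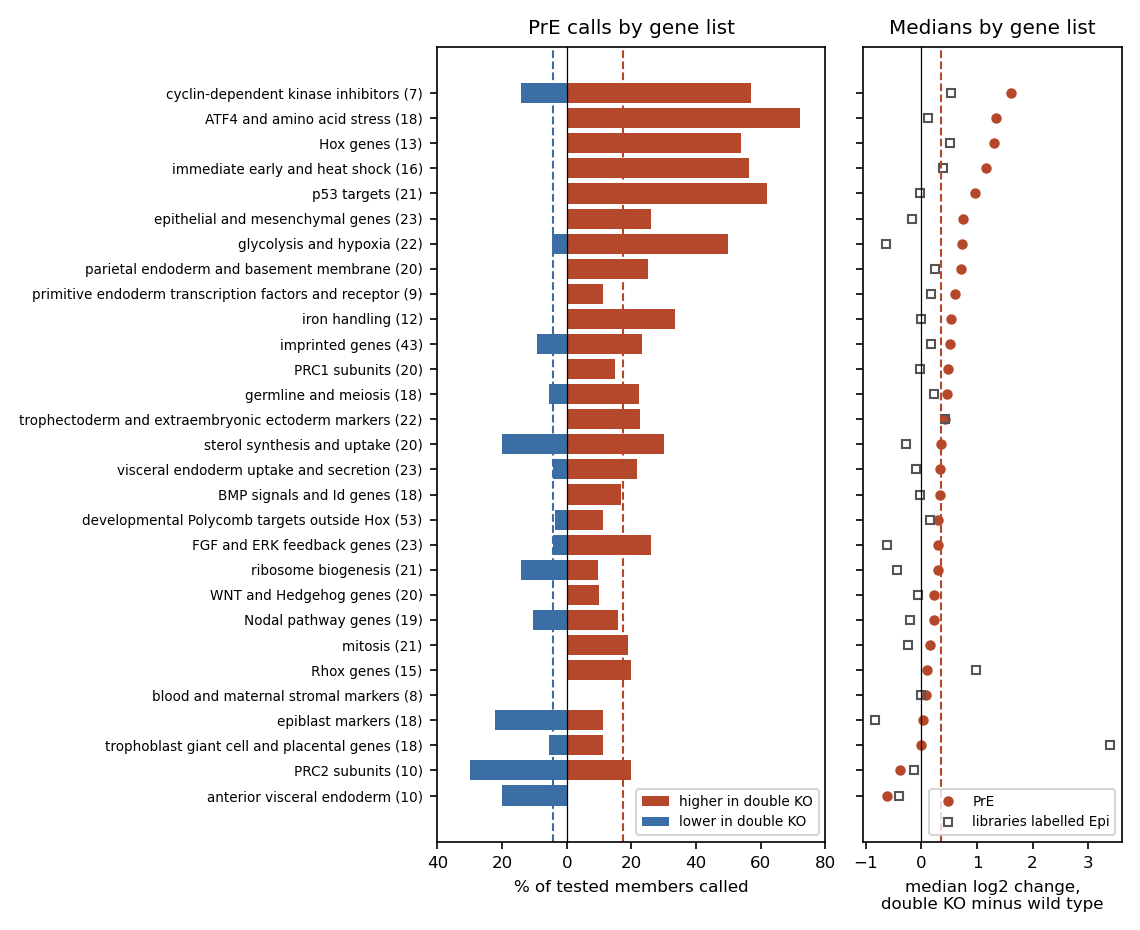
Left, the share of tested members of each gene list (number tested in brackets) called higher (red) or lower (blue) in double-KO against wild-type PrE, with dashed lines at the shares over all genes, 17.4% and 4.22%. Right, the median log2 change of each list in PrE (red circles, all-gene median 0.35 dashed) and in the libraries labelled Epi (open squares). ATF4, p53, immediate early and kinase inhibitor lists have the largest shares of rises beside Hox. The Hox share is favoured by the filter on low values. The anterior visceral endoderm list has falls and no rise.

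Of 9 tested PrE transcription factors and receptors, 1 rose (11.1%, beside 17.4% of all tested genes) and 0 fell, with a median log2 change of 0.60 beside 0.35. Sox17 (chromosome 1, 4490931 to 4497354), a founding factor of the lineage, was at 34.3, 40.4 and 66.7 TPM in double-KO libraries, against 7.64 and 12.4 TPM in wild type (log2 change 2.11, SE 0.48, adjusted p = 0.00553), a call lost at a pseudocount of 0.1 (0.136). Gata4 was at 34.4, 29.7 and 40.9 TPM in double-KO libraries, against 20.1 and 19.4 TPM in wild type (adjusted p = 0.175) and Hnf4a, a hepatic nuclear factor of visceral endoderm, at 13.6, 15.1 and 17.6 TPM in double-KO libraries, against 15.4 and 14.4 TPM in wild type (adjusted p = 0.965). Gata4 was higher in all double-KO libraries without passing the test, and Hnf4a overlapped.

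Visceral endoderm uptake and secretion genes were called in 6 of 23 cases, 5 higher (21.7%, near the 17.4% of all tested genes) and 1 lower, with a median log2 change of 0.34 beside 0.35. Cldn6, a tight junction claudin, was at 1417, 1591 and 1898 TPM in double-KO libraries, against 646 and 564 TPM in wild type (log2 change 1.43, adjusted p = 0.000325). Amn, the membrane anchor of the cubilin receptor, was at 207, 242 and 425 TPM in double-KO libraries, against 92.1 and 73.1 TPM in wild type (log2 change 1.74, adjusted p = 0.00435) and Dab2, an endocytic adaptor, at 1085, 1185 and 1399 TPM in double-KO libraries, against 659.7 and 626 TPM in wild type (adjusted p = 0.00973). Spink1, a secreted protease inhibitor, was the fall, at 1544, 1563 and 1014 TPM in double-KO libraries, against 3174 and 3277 TPM in wild type (log2 change -1.26, adjusted p = 0.00597). The large receptors Lrp2 and Cubn and the carrier Ttr did not pass, with Lrp2 at 129, 159 and 182 TPM in double-KO libraries, against 117 and 131 TPM in wild type and Ttr at 1050.5, 982 and 884 TPM in double-KO libraries, against 1565 and 1282 TPM in wild type. Without wild-type replicate 3 only 1 member was higher and 0 were lower, and the adjusted p was 0.0571 for Amn, 0.0805 for Dab2 and 0.0537 for Spink1.

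Parietal endoderm and basement membrane genes rose in 5 of 20 cases (25%, beside 17.4% of all tested genes) and fell in 0, with a median log2 change of 0.71 beside 0.35. Fst, follistatin, an activin antagonist, was at 31.6, 20.3 and 38.5 TPM in double-KO libraries, against 5.8 and 4.49 TPM in wild type (log2 change 2.30, adjusted p = 0.000963). P4ha2, a collagen prolyl hydroxylase, was at 42.8, 52.8 and 50 TPM in double-KO libraries, against 12.5 and 19.9 TPM in wild type (log2 change 1.56, adjusted p = 0.00245). Both separated the groups. The laminin chains Lama1 and Lamc1 were at 61.3, 55.8 and 67 TPM and 64.7, 63.5 and 63.5 TPM in double-KO libraries, against 27.5 and 24.7 TPM and 30 and 28.6 TPM in wild type (adjusted p = 0.0137 and 0.0142). These calls and that of Sparc, a matrix glycoprotein, were lost without wild-type replicate 3 (Lama1 0.104, Lamc1 0.0946, Sparc 0.0897), and Col4a1 did not pass (0.107).

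Anterior visceral endoderm genes, which mark the signalling centre that places the head, had a median of -0.62 beside 0.35, with 2 of 10 lower (beside 4.22% of all tested genes) and 0 higher (beside 17.4%). Sfrp1, a WNT antagonist, was at 11.8, 14.8 and 17.1 TPM in double-KO libraries, against 43.7 and 46.6 TPM in wild type (log2 change -1.58, adjusted p = 0.00332). Otx2, a homeodomain factor, was at 15.9, 15 and 14.7 TPM in double-KO libraries, against 30.9 and 32.9 TPM in wild type (log2 change -1.02, adjusted p = 0.0203, and 0.119 without wild-type replicate 3). Neither group overlapped the other. Cer1 and Lefty1, secreted Nodal antagonists, were lower in all double-KO libraries without passing: Cer1 was at 3.26, 6.62 and 5.97 TPM in double-KO libraries, against 8.57 and 22.3 TPM in wild type (adjusted p = 0.0847) and Lefty1 at 15.4, 7.4 and 7.12 TPM in double-KO libraries, against 28.5 and 18.2 TPM in wild type (adjusted p = 0.0543). Dkk1 and Hhex did not follow, with Dkk1 at 58, 57.5 and 65.8 TPM in double-KO libraries, against 46.3 and 47 TPM in wild type and Hhex at 42.5, 47.7 and 54.4 TPM in double-KO libraries, against 28.5 and 48.3 TPM in wild type. The number of falls was 4 after median-of-ratios scaling, 5 after quantile normalization and 5 in a fit of PrE libraries alone, and 1 without double-KO replicate 3 or without wild-type replicate 3.

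**Figure D4:**
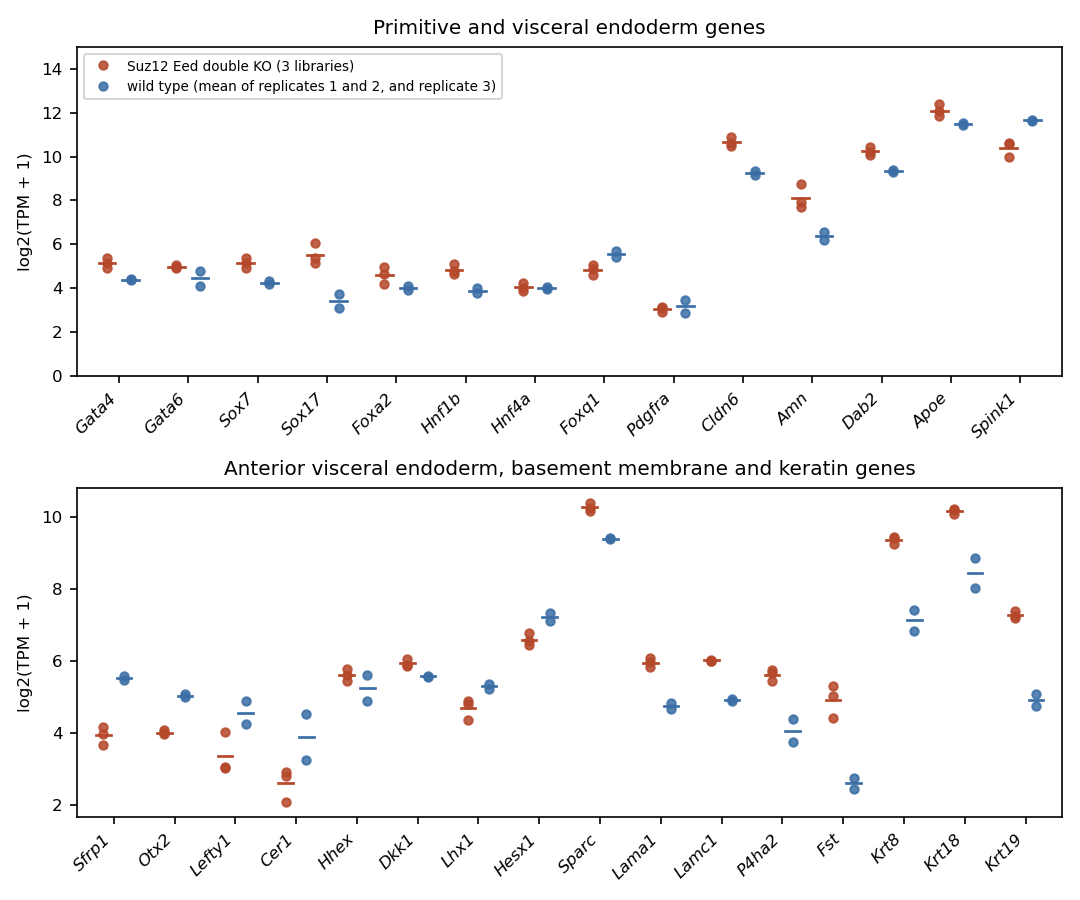
Level as log2(TPM + 1) of primitive and visceral endoderm genes (top) and of anterior visceral endoderm, basement membrane and keratin genes (bottom), in 3 double-KO (red, left) and 2 wild-type (blue, right) PrE libraries, with bars at the means. Sfrp1, Otx2 and Spink1 are lower in the double knockout, Sox17, Cldn6, Fst, Krt8 and Krt19 are higher, and Hnf4a and Pdgfra overlap.

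Simple epithelial keratins rose. Krt8 was at 614, 686 and 694 TPM in double-KO libraries, against 169 and 114 TPM in wild type (log2 change 2.25, SE 0.17, limma adjusted p = 1.86e-06). Krt19 was at 145, 166 and 151 TPM in double-KO libraries, against 33 and 25.8 TPM in wild type (log2 change 2.36, adjusted p = 2.08e-05) and Krt18 at 1176, 1077 and 1194 TPM in double-KO libraries, against 468 and 262 TPM in wild type (log2 change 1.71, adjusted p = 2.86e-05). Keratins are shared by trophectoderm and endoderm epithelia. Of 22 trophectoderm and extraembryonic ectoderm markers, 5 rose (22.7%, near the 17.4% of all tested genes) and 0 fell: the 3 keratins, Tex19.1 at 80.9, 91.6 and 81.9 TPM in double-KO libraries, against 8.27 and 19.2 TPM in wild type (adjusted p = 2.92e-05) and Tead4 (0.0293, and 0.16 without wild-type replicate 3). The summed level of that list was 2077, 2088 and 2180 TPM in double-KO libraries, against 725.7 and 483.6 TPM in wild type. Its defining factors Cdx2 and Elf5 were at or near 0, as given above. Cldn4, another epithelial claudin, was at 7.85, 3.06 and 4.85 TPM in double-KO libraries and listed at 0 in wild type (adjusted p = 0.000575).

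Epiblast genes in PrE were called in 6 of 18 cases, 2 higher (11.1%, beside 17.4% of all tested genes) and 4 lower (beside 4.22%). Sall4, a zinc finger factor also used by PrE, was at 324, 424 and 379 TPM in double-KO libraries, against 903 and 1049 TPM in wild type (log2 change -1.38, adjusted p = 0.000582). Lin28a, an RNA-binding pluripotency gene, was at 12.2, 18.6 and 19 TPM in double-KO libraries, against 37.4 and 44.1 TPM in wild type (log2 change -1.27, adjusted p = 0.00339). Tdgf1, the Nodal co-receptor, was listed at 0 in all double-KO libraries, against 2.27 and 2.2 TPM in wild type (adjusted p = 0.000118). Each fall separated the groups. Pou5f1 was low and overlapping, at 0.863, 6.8 and 3.28 TPM in double-KO libraries, against 0.201 and 4.99 TPM in wild type. The summed level of the list, most of it Dppa5a, was 7574, 6991 and 7069 TPM in double-KO libraries, against 12900 and 11890 TPM in wild type.

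Imprinted genes, expressed from 1 parental allele, were called in 14 of 43 cases, 10 higher (23.3%, beside 17.4% of all tested genes) and 4 lower (beside 4.22%). H19 (chromosome 7, 142575529 to 142578143), a maternally expressed noncoding RNA, was at 88.8, 99.2 and 108 TPM in double-KO libraries, against 20.9 and 20.6 TPM in wild type (log2 change 2.19, SE 0.20, limma adjusted p = 7.66e-06). Phlda2, a maternally expressed growth suppressor of placenta, was at 336, 295 and 286 TPM in double-KO libraries, against 105 and 110.3 TPM in wild type (adjusted p = 5.10e-05), and Slc22a18 of the same cluster was at 4.59, 2.23 and 2.5 TPM in double-KO libraries and listed at 0 in wild type (adjusted p = 0.00164). Cd81, also in the distal chromosome 7 cluster, was at 362, 432 and 467 TPM in double-KO libraries, against 189.9 and 202 TPM in wild type (adjusted p = 0.00036). Igf2r (chromosome 17, 12682406 to 12769664), the scavenger receptor for IGF2, was among the 4 falls, at 53.9, 67.2 and 49 TPM in double-KO libraries, against 228 and 274 TPM in wild type (log2 change -2.13, adjusted p = 0.000247). TPM do not separate the parental alleles, and H13 (88.6, 85 and 97.8 TPM in double-KO libraries, against 22.1 and 26.6 TPM in wild type) cannot be fully told apart from Mcts2, which lies within it.

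The BMP-induced inhibitors of differentiation Id2 and Id3 rose: Id2 was at 197, 201 and 199.6 TPM in double-KO libraries, against 94.2 and 99.2 TPM in wild type (log2 change 1.03, adjusted p = 0.000113) and Id3 at 113, 146 and 185 TPM in double-KO libraries, against 52.6 and 51.7 TPM in wild type (log2 change 1.46, adjusted p = 0.000143). Id1 was the third call among 18 BMP and Id genes (16.7% higher, beside 17.4%), at 59.1, 48 and 62.8 TPM in double-KO libraries, against 14.6 and 33.8 TPM in wild type (adjusted p = 0.00739). No BMP ligand was called. Of 23 FGF and ERK feedback genes 6 rose (26.1%, beside 17.4% of all tested genes) and 1 fell: Fos was at 27.3, 31.5 and 26.5 TPM in double-KO libraries, against 6.89 and 6.69 TPM in wild type (adjusted p = 0.000133), whereas Spry2, a feedback inhibitor of the pathway, fell to 247, 356 and 257 TPM in double-KO libraries, against 937 and 1304 TPM in wild type (log2 change -1.96, adjusted p = 0.000282). Fos, Egr1 and Fosl1 also belong to the immediate early list above, so the rises of the 2 lists are partly the same genes. Fgf3, Fgfr4, Egr1, Fosl1 and Spry1 also rose, and without wild-type replicate 3 the list had 1 rise and 1 fall. Skil, a feedback inhibitor of SMAD signalling, was at 113, 181 and 117 TPM in double-KO libraries, against 415 and 652 TPM in wild type (log2 change -1.95, adjusted p = 0.000771). The medians of the BMP and FGF lists, 0.34 and 0.29 beside 0.35, turned to -0.19 and -0.12 under quantile normalization.

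Sterol genes were called in both directions, with 6 of 20 higher (30%, beside 17.4% of all tested genes) and 4 lower (beside 4.22%). Insig1 (chromosome 5, 28071363 to 28078662), the sterol sensor partner that retains SREBP, was at 879, 1088 and 773 TPM in double-KO libraries, against 3728 and 5399 TPM in wild type (log2 change -2.31, SE 0.28, limma adjusted p = 7.84e-05). Hmgcs1, the synthase of the mevalonate pathway, was at 169, 274 and 222 TPM in double-KO libraries, against 556 and 724 TPM in wild type (log2 change -1.54, adjusted p = 0.000853), and Sc5d, a sterol desaturase, at 207, 242 and 223 TPM in double-KO libraries, against 506 and 657 TPM in wild type (log2 change -1.36, adjusted p = 0.000134). The groups did not overlap for these 3 genes. Mvd, a later enzyme of the mevalonate pathway, went the other way, at 40.3, 36 and 42.5 TPM in double-KO libraries, against 13.2 and 14.2 TPM in wild type (log2 change 1.46, adjusted p = 0.00197). Without wild-type replicate 3 there were 4 falls and 2 rises.

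Ftl1, ferritin light chain, was among the most abundant transcripts of these libraries, at 41891, 40730.5 and 37545 TPM in double-KO libraries, against 21382 and 18360.5 TPM in wild type (log2 change 1.01, SE 0.10, limma adjusted p = 1.78e-05). Hmox1, the heme-degrading oxygenase that releases iron, was at 104, 102 and 135 TPM in double-KO libraries, against 37.5 and 24.1 TPM in wild type (log2 change 1.87, adjusted p = 0.000253). Both were higher in every double-KO library. Tfrc and Slc11a2, which import iron, were called at 0.0493 and 0.0452, and both calls were lost without wild-type replicate 3 (0.479 and 0.134).

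The libraries labelled Epi (epiblast) of the same table, 3 double-KO and 3 wild type, shared the fit and gave a second set to compare. They hold Elf5, a gene of extraembryonic ectoderm, at a mean of 101 TPM in double-KO and 79.1 TPM in wild-type libraries, and Sox2 at 5.41 and 3.42 TPM, which goes against a pure epiblast label, so they are called libraries labelled Epi. There 951 genes (7.22%) were called, 484 higher (3.67%) and 467 lower (3.55%), with a median log2 change of -0.10. The change differed between PrE and the libraries labelled Epi for 2520 genes, with a positive difference, PrE minus Epi, for 1972 (15%) and a negative one for 548 (4.16%). Without PrE wild-type replicate 3 the numbers were 1246 and 309, and after quantile normalization 940 and 836. Of the genes higher in PrE, 147 were also higher in the libraries labelled Epi. This is 6.42% of the PrE rises, beside 3.67% of all tested genes called higher in the libraries labelled Epi. It is 30.4% of the Epi rises, beside 17.4% of all tested genes called higher in PrE. Among the falls 29 were shared, 5.22% of those in PrE (beside 3.55%) and 6.21% of those labelled Epi (beside 4.22%). In opposite directions, 122 of the 2289 genes higher in PrE were lower in the libraries labelled Epi, where 467 were lower. Of the 556 lower in PrE, 22 were higher there, among 484. No test of these overlaps was made.

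Placental genes differed between PrE and the libraries labelled Epi. Of 37 trophoblast giant cell and placental genes, 21 were listed at 0 in every PrE library, and of the 18 tested 2, Sct and Peg10, were higher (11.1%, beside 17.4% of all tested genes) and 1, Prl5a1, lower in PrE, with a median of 0 beside 0.35. In the libraries labelled Epi 14 of the 18 were higher (77.8%, beside 3.67%). For 13 the difference was negative and passed the test, beside 4.16% of all tested genes. Members could pass the filter through the double-KO libraries labelled Epi alone, so these counts are a description, and with no filter 43.3% of 30 were higher there. In PrE, Plac1 (chromosome X, 53069995 to 53240111), a placental surface protein, was at 107, 114 and 110.3 TPM in double-KO libraries, against 97.2 and 86.7 TPM in wild type (log2 change 0.26, adjusted p = 0.307). In the libraries labelled Epi it was at 707, 775 and 1018 TPM in double-KO, against 27.3, 26.1 and 27.7 TPM in wild type (difference -4.61, adjusted p = 4.71e-08). Prl3d1, placental lactogen I, varied from library to library in PrE, at 92.4, 15.9 and 1.8 TPM in double-KO libraries, against 17.3 and 18 TPM in wild type, and its groups overlapped. Sct, whose PrE values are given above, was at 329.9, 291 and 259 TPM in double-KO libraries labelled Epi, against 2.64, 5.27 and 3.21 TPM in wild type.

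Rhox genes, an X-linked homeobox cluster used in trophoblast and germ cells, included members that differed. In PrE 3 of 15 were higher (20%, near the 17.4% of all tested genes), and in the libraries labelled Epi 6 (40%, beside 3.67%). At 1 TPM or more in PrE were 4, 4 and 5 of 18 Rhox genes in double-KO libraries, and 3 in each wild-type replicate. Members could pass the filter through the libraries labelled Epi alone, so these counts are a description. In PrE, Rhox9 (chromosome X, 37899097 to 37901770) was at 60.8, 86.7 and 70.1 TPM in double-KO libraries, against 17.4 and 16.1 TPM in wild type (log2 change 2.04, adjusted p = 7.84e-05), and Rhox6 at 197, 231 and 234 TPM in double-KO libraries, against 115 and 114 TPM in wild type (log2 change 0.94, adjusted p = 0.000542). In the libraries labelled Epi the log2 changes were 4.87 for Rhox9 and 3.91 for Rhox6, and the differences of -2.84 and -2.97 passed the test (adjusted p = 0.000126 and 1.83e-06). Members of this cluster are close copies, so reads may be shared among them.

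Glycolysis enzymes were called in opposite directions. Of 22 members, 9 were lower (beside 3.55% of all tested genes) and 1 higher (beside 3.67%) in the libraries labelled Epi. For 12 the difference was positive and passed, beside 15% of all tested genes. Eno1 changed by 1.47 in PrE and by -0.89 in the libraries labelled Epi on the log2 scale (difference 2.36, limma adjusted p = 2.40e-06). The p53 list had 13 rises in PrE (beside 17.4% of all tested genes) and 2 in the libraries labelled Epi (beside 3.67%). For 12 of its 21 tested members a positive difference passed the test, beside 15% of all tested genes. Phlda3 changed by 2.81 in PrE and by 0.06 in the libraries labelled Epi (difference 2.75, adjusted p = 0.000241). Phlda3 was already at 77.7, 100.0 and 63.2 TPM in wild-type libraries labelled Epi, above wild-type PrE. Id3 and Id1 also differed in sign: Id3 changed by -1.29 and Id1 by -1.21 in the libraries labelled Epi (differences 2.75 and 2.51, adjusted p = 3.68e-05 and 0.00107). The rise of Krt8 did not pass the test of a difference: it rose by 2.10 in the libraries labelled Epi, with a difference of 0.15 (adjusted p = 0.69).

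**Figure D5:**
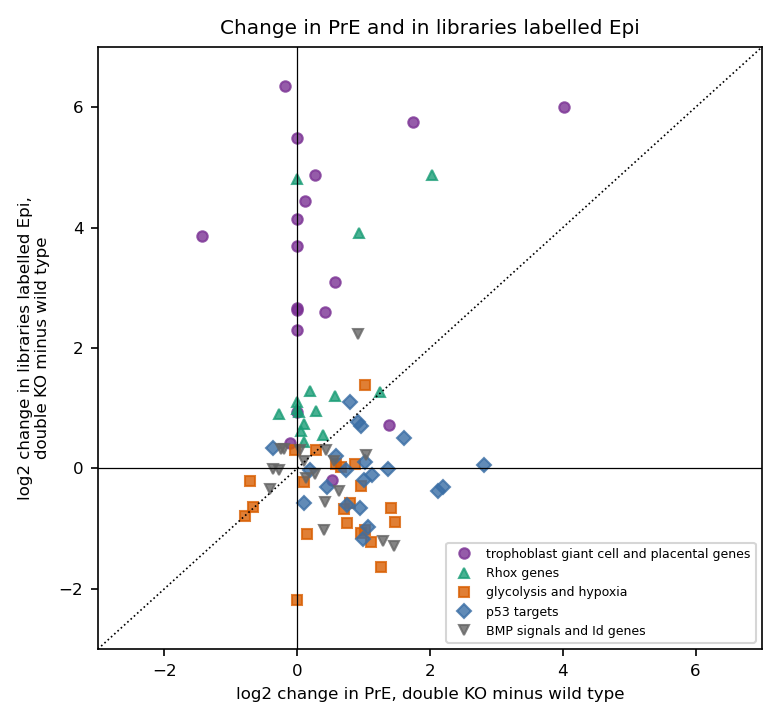
Log2 change of each tested member of 5 gene lists, double KO minus wild type, in PrE (horizontal) and in the libraries labelled Epi (vertical), with a dotted line where both are equal. Most placental and Rhox genes lie near 0 on the PrE axis and reach up to 6.35 on the other, and glycolysis and p53 genes lie mostly to the right of 0 and mostly at or below 0 on the vertical axis.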

How the data were processed

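TPM of the Suz12 Eed experiment were deposited by the authors, from full-length cDNA libraries per the labels' protocols. The submitters' processing notes name mm10, Cufflinks, StringTie 2.2.1 and HISAT2 2.2.1 without the role of each. From these TPM, log2(TPM + 1) was fitted for genes that 2 or more of 11 libraries held at 1 TPM or above, by limma 3.58.1 run under R 4.3.3 (linear model of 4 groups, eBayes with trend, Benjamini-Hochberg adjustment over 13172 genes, threshold 0.05), after PrE wild-type replicates 1 and 2 were averaged. The difference between PrE and the libraries labelled Epi is the interaction contrast. The scripts were tested on simulated data. Tables were read with the data.table package (1.17.8) and Python 3.11.15 with pandas 2.3.3, and figures were drawn with matplotlib 3.10.9.

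Coordinates are from GENCODE M21 on mm10 (24183 of 25006 symbols matched), and promoter windows from RefSeq (18509 symbols). The members and the 31 gene lists were chosen with earlier results of these data known. Named genes are the 12 largest rises and falls past the threshold with groups apart and a higher group mean of at least 5 TPM, 6 differences in each direction, up to 5 called genes per list (up to 2 where none was called), PRC2 subunits and 6 lineage markers. Other genes, such as list members that did not pass, were chosen after their values were seen. Values of some genes are not reported here. Replicate numbers did not pair the PrE libraries. Alternatives were another pseudocount, other filters, quantile normalization, library weights, a PrE-only fit, a replicate block, each library left out, and median-of-ratios scaling, which was added after seeing the data. Nothing says that replicates came from separate embryos beyond the label of biological replicates, so p-values measure the spread between these libraries.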

Additional observations from a re-analysis of the deposited data

Results flagged for a closer look

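The change in PrE differed from that in the libraries labelled Epi for 2520 genes by the interaction test of limma. For the genes below, which had large differences or calls in opposite directions, the values are differences of log2 changes on log2(TPM + 1), PrE minus Epi, and no explanation was weighed. Positive differences were found for Derl3 (4.88), Cpe (4.69), Hmga1b (4.68), Ccnd3 (4.54), Ccl2 (4.52) and Gdf15 (4.35). Derl3, Gdf15 and Cpe were listed at 0 in wild-type PrE, so these are fitted values and no folds, and Hmga1b is a copy of Hmga1, so its reads are uncertain. Negative differences were found for Prl3d1 (-6.54), Slc24a5 (-5.47), Prl5a1 (-5.30), Plac1 (-4.61), Prl3d2 (-4.33), Pparg (-3.997) and Pgam2 (-3.80). Slc24a5 rested on wild-type replicate 3, and Prl3d1 and Prl3d2 are close copies with overlapping groups in PrE.

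Calls in opposite directions included glycolysis enzymes, higher in PrE and lower in the libraries labelled Epi: Pfkl (2.90), Eno1 (2.36), Aldoa (2.06), Pgam1 (2.06) and Ldha (2.03). The same held for Id3 (2.75) and Id1 (2.51), for the ribosome biogenesis genes Rrp9 (2.83) and Nop2 (2.51), and for the mitosis genes Aurkb (2.24) and Cdc20 (1.41). Sc5d, a sterol desaturase, was lower in PrE and higher in the libraries labelled Epi (-2.03). Not all of these PrE calls held in the alternative runs. Those of Pgam1, Ldha and Nop2 were lost without wild-type replicate 3, and those of Id1, Nop2 and Aurkb under quantile normalization. That of Aurkb was also lost under median-of-ratios scaling and without double-KO replicate 2 or 3. Groups of 2 and 3 libraries are too small for a test of single outlying samples.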

How the results depend on the processing

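Of 2845 calls in PrE, leaving out 1 library gave 1400 to 2908 (1151 to 2333 higher, 249 to 575 lower), lowest without wild-type replicate 3, where a lone library is assumed to vary like the other groups. Quantile normalization gave 1175 higher and 987 lower, and median-of-ratios scaling, added after seeing the data, 1535 higher and 932 lower. For the difference between lineages the range over libraries left out was 1555 to 2567 (1246 to 1997 positive, 309 to 570 negative), quantile normalization gave 940 positive and 836 negative and median-of-ratios scaling 1158 and 912. Falls in the libraries labelled Epi numbered 308 at a pseudocount of 0.1. Replicate numbers did not pair PrE libraries (correlations of deviations 0.03, -0.06 and -0.01, none best with its own number): with a replicate block and no averaging 4001 genes were called in PrE, against 3820 without the block, and among 152 named genes the block added the call of Jarid2, while that of Tfrc was lost without averaging, with or without it. In the libraries labelled Epi each double-KO replicate matched best the wild-type replicate of its own number (0.0846, 0.205 and 0.108), a hint from the data and not the design, and 723 fell there with the block. Suz12 kept its direction but lost its call at a pseudocount of 0.1 (-0.97) and without a filter (-0.93), and ranged from -1.03 to -0.84 over libraries left out, while Eed ranged from -1.67 to -1.49 and kept its call in every alternative run. Sign changes touched uncalled genes only: Prl3d1 from -1.44 to 1.09 and Prl3d2 from -0.93 to 1.07 over libraries left out, Prl3d2 also at a pseudocount of 0.1 (-0.13), under quantile normalization (-0.31) and median-of-ratios scaling (-0.10), Sox2 from -0.0974 to 0.0542 over libraries left out and at -0.18, -0.59, -0.0153 and -0.0206 under pseudocount 0.1, quantile normalization, library weights and median-of-ratios scaling, Plac1 at -0.00992 under median-of-ratios scaling, and Ezh1 (-0.0269) and Hba-a2 (-0.0454) under quantile normalization. Of 152 named genes 39 lost a call without wild-type replicate 3, 29 under quantile normalization, 23 without double-KO replicate 3 and at most 17 under any other alternative. The cause was not tested.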

Other observations

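Of 21 mitosis genes 4 were higher (19%, near the 17.4% of all tested genes) and 0 lower in PrE, among them Plk1, the mitotic polo-like kinase, at 29, 33.7 and 52.9 TPM in double-KO libraries, against 11.9 and 6.75 TPM in wild type (log2 change 1.94, limma adjusted p = 0.000739). Of 21 ribosome biogenesis genes 2 were higher (9.52%) and 3 lower (beside 4.22% of all tested genes): Rrp9, which processes ribosomal RNA, was at 73.4, 71.1 and 98.4 TPM in double-KO libraries, against 20.7 and 20.2 TPM in wild type (adjusted p = 5.42e-05), whereas Rrn3, an RNA polymerase I initiation factor, was at 133, 186 and 151 TPM in double-KO libraries, against 329 and 435 TPM in wild type (adjusted p = 0.00117). The mitosis median was 0.16 beside 0.35, and -0.11 under median-of-ratios scaling.

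Germline genes gave 4 rises (22.2%, near the 17.4% of all tested genes) and 1 fall among 18. Syce1, a synaptonemal complex gene, was at 47.8, 51.9 and 40.3 TPM in double-KO libraries, against 7.17 and 19.5 TPM in wild type (log2 change 1.87, adjusted p = 0.000704), and Asz1, a piRNA pathway gene, at 6.19, 3.93 and 3.41 TPM in double-KO libraries, against 0.6 and 0 TPM in wild type (log2 change 2.09, adjusted p = 0.00132). Sycp3, another synaptonemal complex gene, was at 392, 439 and 364 TPM in double-KO libraries, against 627 and 745 TPM in wild type (adjusted p = 0.021, and 0.18 without wild-type replicate 3).

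X-linked genes were also counted. In PrE 15% of 525 X-linked genes were higher, beside 17.5% of 12339 autosomal genes. In the libraries labelled Epi the shares were 11.8% and 3.34%. No test of the difference between these shares was made.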
